A study of Mus musculus with 9 samples.

Results

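The loci described are those of Ebf1, Runx2, Meis1 and Tead4, genes of transcription factors whose binding motifs the study related to EWS/ATF1 sites of one or the other cell type, Ebf1 on the sarcoma side and Runx2, Meis1 and Tead4 on the fibroblast side. Members were all EWS/ATF1 peaks that overlapped a fixed window around each gene in mouse genome build mm9, on chromosome 11 from 44380000 to 44870000 for Ebf1, on chromosome 17 from 44580000 to 45000000 for Runx2, on chromosome 11 from 18730000 to 18970000 for Meis1 and on chromosome 6 from 128120000 to 128300000 for Tead4. They held 40 of the 35220 peaks in the lists, 7 of 8090 in the G1297 list and 33 of 27130 in the MEF list.

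EWS/ATF1 was mapped by ChIP-Seq, in which DNA bound by a protein is recovered with an antibody and sequenced, using an antibody against the HA tag. G1297 is a mouse sarcoma cell line in which doxycycline (Dox) switches on EWS/ATF1, and the sarcoma MEFs are embryonic fibroblasts grown from chimeric embryos of induced pluripotent stem cells (clone #3) that had been reprogrammed from this sarcoma line and carry the same inducible fusion gene. Both cell types received Dox at 0.2 µg/ml for 12 h. The labels describe 2 G1297 libraries and 1 MEF library of this kind among the 9 samples of the series. The comparison is thus between a single tumour line and fibroblasts of a single reprogrammed clone, which share their genetic origin, and neither list describes cells without Dox. The KRAB libraries of the series were not used.

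EWS/ATF1 joins part of the RNA-binding protein EWS to the DNA-binding domain of ATF1, a member of the CREB family that recognises the cyclic AMP response element (CRE) in DNA. Ebf1, Runx2, Meis1 and Tead4 are DNA-binding regulators of cell identity, each from a different protein family. A peak near such a gene marks a place where the fusion protein was recovered and does not by itself give the gene's expression.

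Each list was deposited by the authors as peak positions, each with a score that MACS derives from the peak's P value on a logarithmic scale. A higher score thus means stronger statistical evidence of enrichment over input, and not necessarily a larger enrichment. Scores depend on the number of reads, and the depth of the libraries is unknown because the lists hold no read counts. Peaks of different lists were therefore compared by percentile within a list, where 0 is the weakest and 100 the strongest end and tied peaks received their mean rank. Percentiles do not remove the effect of depth, since they also depend on how many weak peaks a list holds. Peaks that overlapped the other list had a median percentile of 58.4 in G1297 and 74.5 in MEFs. Each cell type has a single list with no values per replicate, so the spread between replicates is unknown and all comparisons are descriptions without a test. A missing peak means only that no region passed the authors' threshold.

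By percentile, the strongest peak was in the G1297 list at Ebf1 and in the MEF list at Runx2, Meis1 and Tead4. Ebf1 had 5 peaks in G1297, the strongest at the 98.6th percentile, and 9 peaks in MEFs, the strongest at the 60.4th percentile. The median percentile at Ebf1 was lower in G1297, at 20.4, than in MEFs, at 28.4. Runx2 had 10 peaks in MEFs, up to the 90.8th percentile, and 0 in G1297. Meis1 had 12 peaks in MEFs and 2 in G1297, both below the median of the G1297 list. Tead4 had 2 peaks in MEFs and 0 in G1297. Among genome stretches of the same length, 56.6% for Runx2 and 73.4% for Tead4 also held 0 G1297 peaks. The MEF list is the longer one, with 27130 peaks against 8090. In all, 5 of the 7 G1297 peaks (71.4%) had at least 1 bp in common with a peak of the MEF list, against 62.8% of the whole G1297 list. Conversely, 5 of the 33 MEF peaks (15.2%) were shared with G1297, against 18.5% of the whole MEF list. Both shares were near those of the whole lists, and the 40 peaks marked 35 distinct sites.

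**Figure D1:**
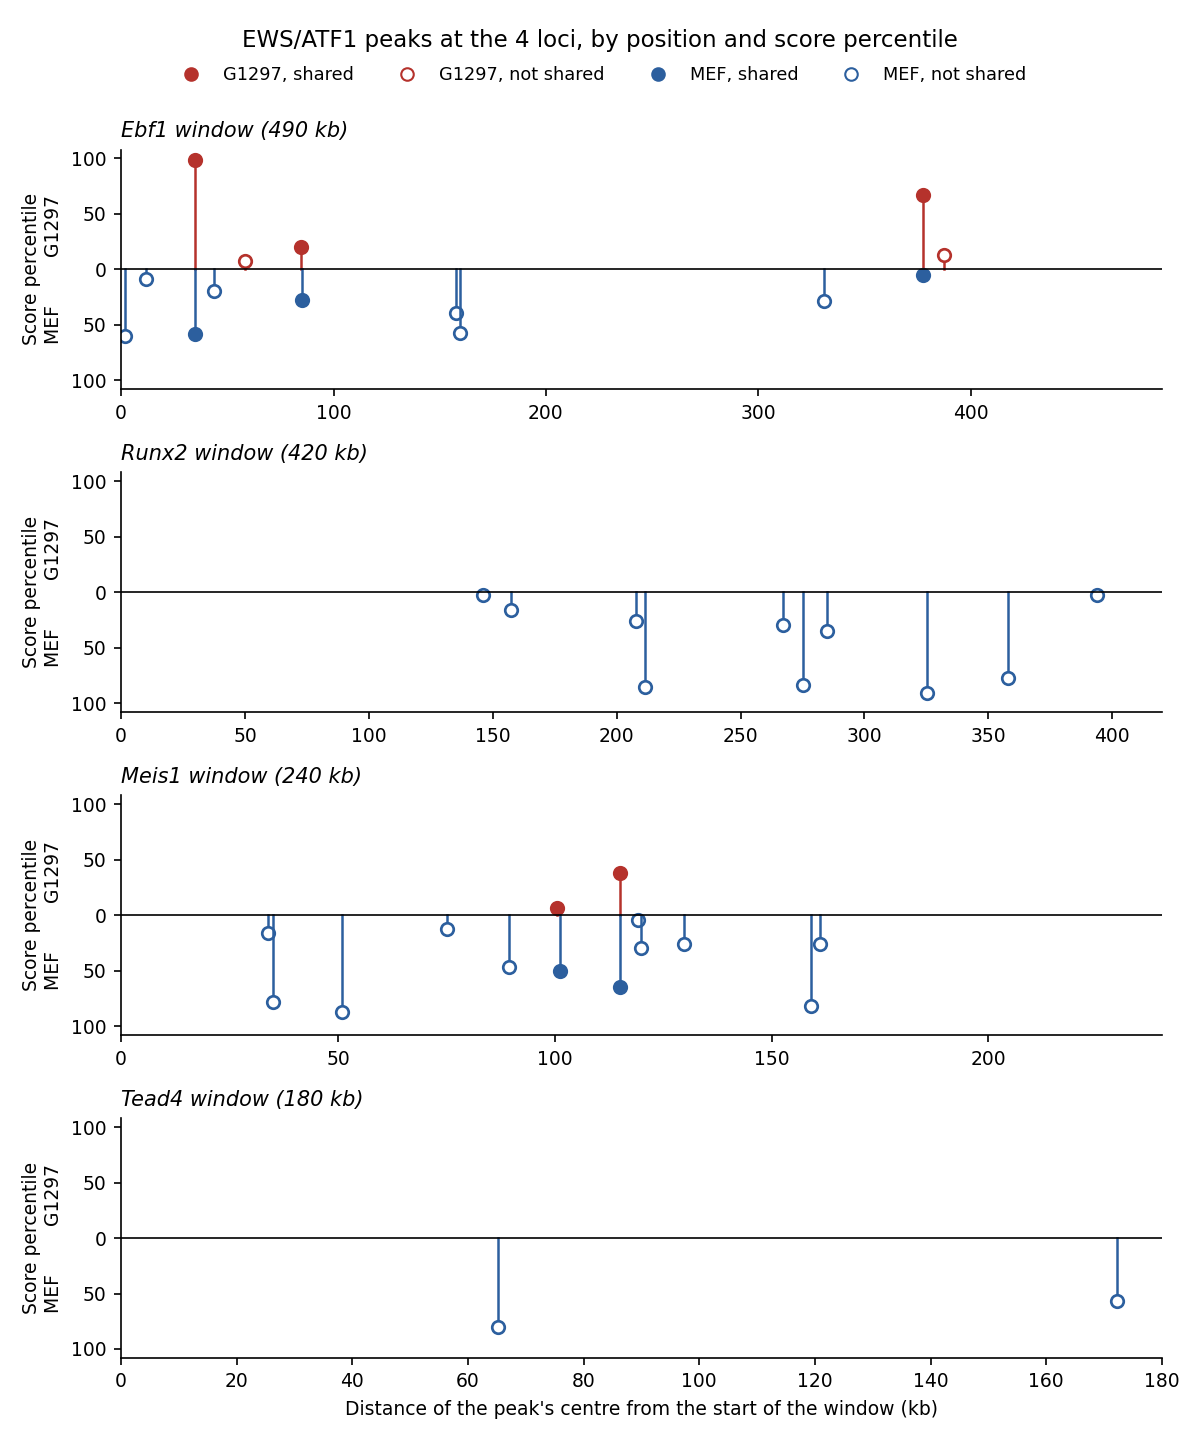
Position (kb from the start of each window) and score percentile of all 40 peaks, G1297 upwards in red and MEF downwards in blue, with filled circles for peaks that overlap a peak of the other list. G1297 peaks appear at Ebf1 and Meis1, the highest at the 98.6th percentile in the Ebf1 window, whereas the Runx2 and Tead4 windows hold MEF peaks and 0 G1297 peaks.

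Ebf1 encodes early B-cell factor 1, which is required for B-cell development and is also expressed in adipocyte precursors and in derivatives of the neural crest. In G1297 its 5 peaks corresponded to 10.2 peaks per Mb, against 3.07 per Mb over the whole list. When chromosomes 1 to 19 and X were divided into tiles of 490 kb, the length of this window, 10.7% of the 5366 tiles held at least 5 G1297 peaks. The 9 MEF peaks corresponded to 18.4 per Mb against 10.3 per Mb over the whole list, and 22.6% of the tiles held at least 9 MEF peaks. The flanks of 490 kb before and after the window held 0 and 4 G1297 peaks and 10 and 11 MEF peaks. The density in the window was thus above the list's mean in both cell types, and for MEFs it did not exceed that of the flanks.

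The strongest G1297 peak of the Ebf1 window lay on chromosome 11 from 44414179 to 44415641, 34.9 kb into the window, and was 1463 bp wide against a median of 815 bp in the list. Its score of 3100 occurs in 209 G1297 peaks, which cannot be ordered by score, and their mean rank gives the 98.6th percentile; the highest score in the list is 3230. The MEF peak at this site, from 44414336 to 44415514, lay wholly within it, with centres 15 bp apart. Its score of 413 was at the 58.6th percentile of the MEF list. The site was called in both cell types at nearly the same centre, and its place among the peaks of its list was 40.0 percentile points higher in G1297.

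In second place by score, the G1297 peak at 44757100 to 44758433 scored 462 at the 67.2nd percentile. It enclosed a MEF peak from 44757153 to 44758080 with a score of 101, at the 4.96th percentile and the lowest of the 9 MEF peaks in the window. The third G1297 peak by score, from 44464447 to 44465117, was weak in both lists, with a score of 131 at the 20.4th percentile in G1297 and, for the MEF peak from 44464539 to 44465309, a score of 173 at the 27.9th percentile. The 2 G1297 peaks without a MEF counterpart were weak as well. They lay from 44767281 to 44767790, with a score of 113 at the 12.8th percentile and 9.20 kb from the nearest MEF peak, and from 44437987 to 44438605, with a score of 103 at the 7.87th percentile and 13.9 kb from the nearest MEF peak.

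The G1297 peaks at Ebf1 fell into an early and a late group, 3 between 34.9 and 84.8 kb and 2 between 378 and 388 kb from the start of the window. The 292 kb between these groups held 3 MEF peaks and 0 G1297 peaks, and 22.4% of all gaps between G1297 peaks, with 84.1% of the length of the gaps, were at least as long. The strongest MEF peak of the window, from 44381400 to 44382486, had a score of 437 at the 60.4th percentile and lay 31.7 kb from the nearest G1297 peak. At 44538859 to 44539943, another MEF peak scored 397 at the 57.2nd percentile and lay 73.7 kb from a G1297 peak, and a further MEF peak ended 792 bp before it. Scores of the 4 other MEF peaks ranged from 110 to 232. Of the 9 MEF peaks 3 were above the median of their list and 0 in its highest-scoring 10%.

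The table of RefSeq promoters holds 2 starts of Ebf1, 1 of Runx2 and 1 of Meis1, in build GRCm38.p6. These sequences are shown for the letters that the ATF1 domain and the Runt domain are known to recognise. The peaks are in mm9 and were not converted, so it was not determined whether a peak covers them. Motifs were searched on both strands, and capitals mark every match. A match describes letters and not binding. The full CRE, TGACGTCA, was found in 0 of these promoters and in 1.79% of the 32851 promoters of the table. Its shorter core TGACG, which lies within the full CRE, was found once, read on the opposite strand as CGTCA in the second Ebf1 start, and is present in 20.8% of all promoters.
Ebf1, chr11:44619978-44620277, + strand, GRCm38.p6: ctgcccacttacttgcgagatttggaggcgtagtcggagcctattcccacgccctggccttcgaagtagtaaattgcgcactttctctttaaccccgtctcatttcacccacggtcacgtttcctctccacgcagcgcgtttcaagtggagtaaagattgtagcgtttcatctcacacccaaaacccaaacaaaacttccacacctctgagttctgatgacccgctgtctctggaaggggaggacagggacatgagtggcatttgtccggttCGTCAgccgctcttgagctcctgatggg
Runx2, chr17:44814578-44814877, - strand, GRCm38.p6: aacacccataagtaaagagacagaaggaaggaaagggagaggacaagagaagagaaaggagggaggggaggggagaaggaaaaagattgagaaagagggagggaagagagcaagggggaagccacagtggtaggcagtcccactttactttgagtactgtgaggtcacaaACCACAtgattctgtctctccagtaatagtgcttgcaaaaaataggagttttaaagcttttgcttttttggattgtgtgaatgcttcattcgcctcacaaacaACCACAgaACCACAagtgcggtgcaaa
In the Runx2 sequence the capitals mark the Runt core TGTGGT, found 3 times and read on the opposite strand as ACCACA. It was also found once in the first Ebf1 start and once in the Meis1 promoter, and 16.8% of all promoters hold it. The other letters searched were TGANTCA for AP-1 (7.81% of all promoters), CCCNNGGG as an EBF core (13.7%), TGACAG as a MEIS core (19.2%) and GGAATG as a TEAD core (14.7%), and none of them occurred in these 4 sequences. Among the 16 promoters that the table gives for 11 of the 14 genes of the Ebf, Runx, Meis and Tead families, the CRE core was found in 2, the EBF core in 3, the Runt core in 5, the MEIS core in 2 and the TEAD core in 4.

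Runx2 encodes a Runt-domain factor required for the formation of osteoblasts. Its window contained 10 MEF peaks, 23.8 per Mb against 10.3 per Mb over the list, and 13.8% of the 6258 tiles of 420 kb held at least 10. With 0 G1297 peaks it was like 56.6% of the tiles, which also held 0, so the missing G1297 peaks do not set the window apart from the rest of that list. None of the 10 MEF peaks was shared with G1297, where 18.5% of the whole MEF list was. This follows from the 0 G1297 peaks in the window and is not a second contrast. The 10 MEF peaks lay between 227 and 400 kb from the nearest G1297 peak.

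The strongest Runx2 peak in MEFs lay on chromosome 17 from 44904124 to 44906222, with a score of 1918 at the 90.8th percentile and a width of 2099 bp, against a list median of 970 bp. The next, from 44790790 to 44792081, had a score of 1291 at the 85.1st percentile, and the third, from 44854316 to 44855887, a score of 1170 at the 83.5th percentile. These peaks were spread over the second part of the window, at 211, 275 and 325 kb from its start. The weakest, from 44725834 to 44726556, had a score of 95.27 at the 2.62nd percentile, and the remaining 6 had scores between 95.69 and 850. The window thus combined 4 peaks above the list's median with 6 below it.

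Of the Runx2 peaks, 3 formed a cluster of 18.8 kb, from 44846558 to 44865383, defined as at least 3 peaks with gaps of at most 10 kb. In the whole MEF list 24.9% of the peaks lay in such clusters. Around the window, the stretch without a G1297 peak measured 810 kb and held 16 MEF peaks. Of the 8060 gaps between neighbouring G1297 peaks, 8.8% were at least as long, and such gaps made up 63.0% of the total length of the gaps, so that a stretch of this length was common by length. The G1297 peaks at its ends had scores of 123 at the 17.2nd percentile and 279 at the 51.1st percentile, 189 kb before and 201 kb after the window, and both overlapped a MEF peak. In the flanks of 420 kb on either side, 10 and 9 MEF peaks and 3 and 3 G1297 peaks were called. The MEF density in the window was therefore like that of its surroundings. In the GRCm38 annotation the coding gene Supt3 overlaps Runx2, and the peaks of this window cannot be assigned to either gene.

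Meis1 encodes a homeodomain protein that binds DNA together with Hox and Pbx factors. Its 12 MEF peaks covered 5.50% of a window of 240 kb, the second shortest of the 4. Only 1.74% of the 10963 tiles of 240 kb held at least 12 MEF peaks, the lowest share among the 4 loci. The flanks of 240 kb held 4 and 1 MEF peaks and 0 G1297 peaks. In G1297 the window had 2 peaks, 8.33 per Mb, and 17.3% of the tiles held at least 2. The concentration of MEF peaks was limited to the window when compared with these flanks.

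The strongest Meis1 peak in MEFs lay on chromosome 11 from 18779772 to 18782226, with a score of 1445 at the 87.0th percentile. At 2455 bp it was the widest of the 40 peaks. It was followed by a peak from 18888522 to 18889957, with a score of 1087 at the 82.1st percentile, and a peak from 18764336 to 18765587, with a score of 908 at the 78.6th percentile. These 3 peaks lay 47990, 43042 and 64629 bp from the nearest G1297 peak, on either side of the stretch where G1297 peaks were called. The lowest score in MEFs, 98.62 at the 4.08th percentile, belonged to the peak from 18848735 to 18849481, and the 6 peaks that were neither shared nor among these had scores between 120 and 285.

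Both G1297 peaks of the Meis1 window overlapped a MEF peak. The stronger, from 18844796 to 18845479, scored 193 at the 38.1st percentile and lay wholly within a MEF peak from 18844566 to 18845613, which had a score of 508 at the 64.7th percentile. The weaker, from 18830217 to 18830849, scored 101 at the 6.63rd percentile. It shared 296 bp, or 46.8% of its length, with a MEF peak from 18830554 to 18831990 that had a score of 317 at the 50.2nd percentile, and the centres lay 739 bp apart. This second overlap depends on its definition, since it was lost when at least 50% of the shorter peak had to overlap or when centres had to lie within 500 bp.

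MEF peaks at Meis1 were closely spaced. Of the 12, 6 lay within 2 kb of another MEF peak, against 22.6% of the whole MEF list. They formed 3 pairs with 130, 158 and 804 bp between their peaks. At Ebf1 2 of 9 MEF peaks lay this close to another, at Runx2 0 of 10 and at Tead4 0 of 2. Over the 4 loci the count was 8 of 33, which is near the share of the whole list. The percentiles in the Meis1 pairs were 78.6 against 15.7, 29.5 against 4.08 and 82.1 against 26.2, and in the close Ebf1 pair 57.2 against 39.1. The distance of 2 kb, the flanks beside each window and the lengths of stretches without G1297 peaks were chosen after the positions had been seen. A cluster of 4 peaks with gaps of at most 10 kb extended over 15.6 kb, from 18844566 to 18860212, and included the shared peak at its start. G1297 had 0 clusters at the 4 loci, and 14.7% of its peaks lay in clusters over the whole list.

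Tead4 encodes a TEA-domain factor that binds DNA for the coactivators YAP and TAZ and is needed for the trophectoderm of the early embryo. The window had 2 MEF peaks, 11.1 per Mb, and 40.2% of the 14617 tiles of 180 kb held at least 2. The stronger lay on chromosome 6 from 128184619 to 128185709, with a score of 990 at the 80.3rd percentile, 99.5 kb from the nearest G1297 peak. The weaker, from 128291841 to 128292829, had a score of 395 at the 57.1st percentile, 81.8 kb from the nearest G1297 peak, with its centre at 95.7% of the length of the window. The 2 peaks were the only ones of the Tead4 window, and both were above the median of the MEF list.

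In G1297 0 peaks were called at Tead4, as in 73.4% of the tiles of this length. With the window extended by 50 kb on each side, both lists had 2 peaks, so the difference holds for the window as defined. The flanks of 180 kb before and after it held 3 and 1 G1297 peaks and 3 and 0 MEF peaks. The G1297 peaks nearest to the window were closer than at Runx2, 34.9 kb before it with a score of 281 at the 51.4th percentile and 74.6 kb after it with a score of 91.19 at the 0.828th percentile. Neither overlapped a MEF peak. The stretch between them measured 290 kb, and 22.6% of the gaps between G1297 peaks were at least as long. The nearest MEF peaks outside the window lay 61989 bp before and 251441 bp after it, with scores of 211 and 486.

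**Figure D2:**
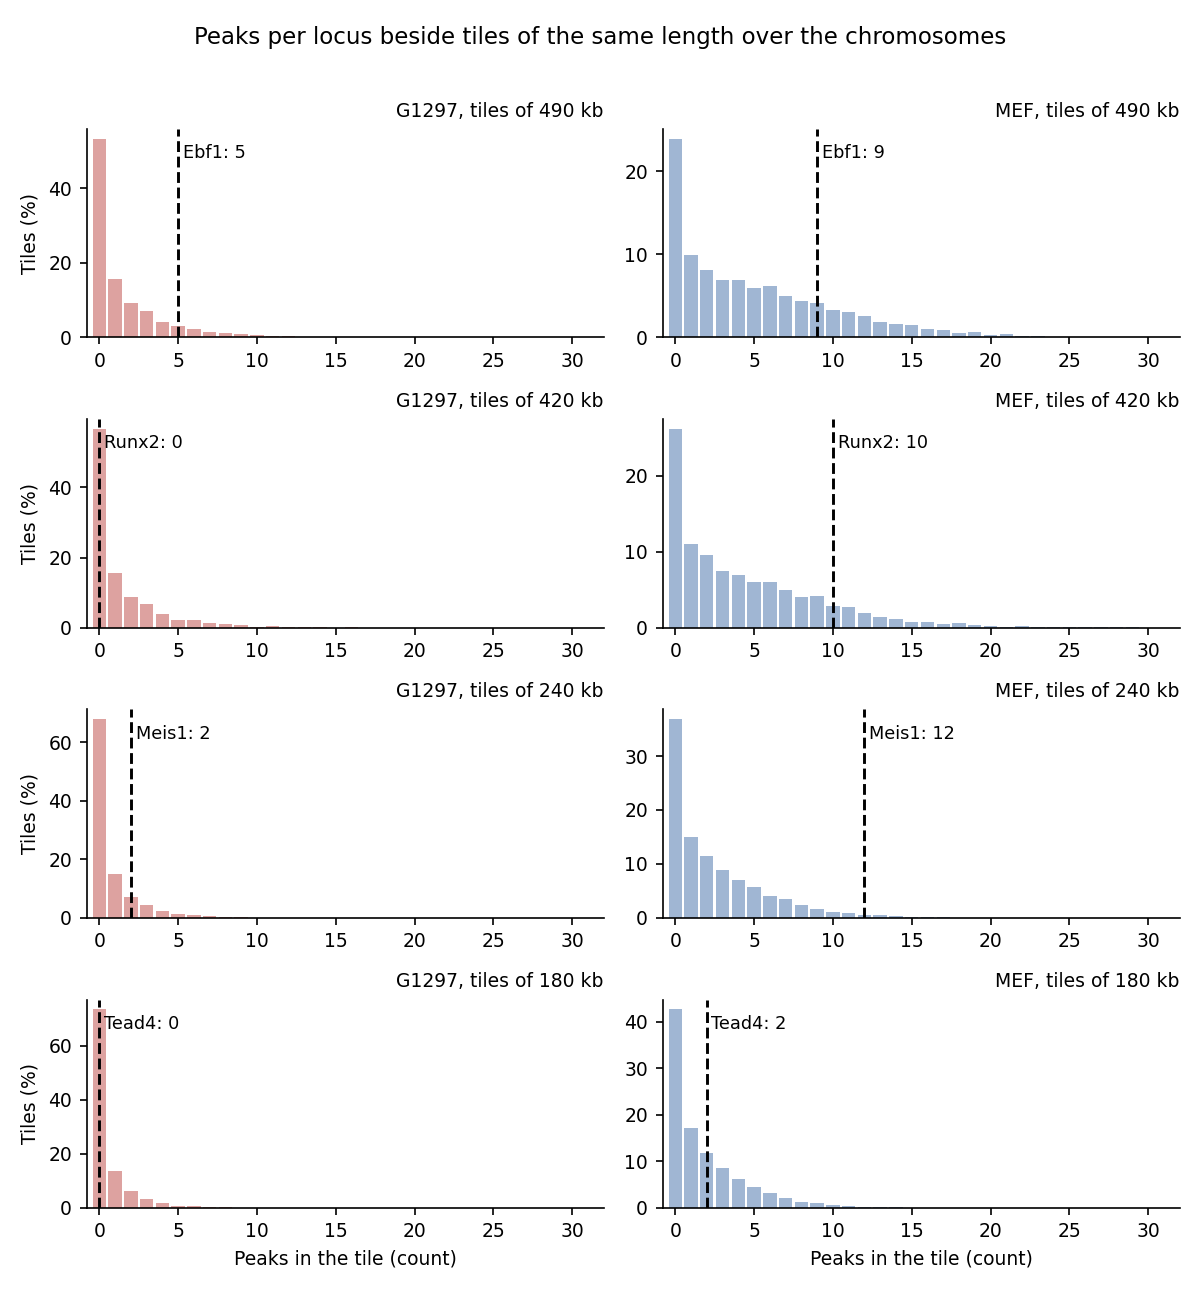
Share of tiles (%) by the number of peaks in the tile, for tiles of each window's length over chromosomes 1 to 19 and X, with G1297 on the left, MEF on the right and a dashed line at the locus; the vertical scales differ between panels. At Meis1, 1.74% of the tiles held at least 12 MEF peaks and 0.593% held exactly 12, and 0 peaks is the most frequent count in both lists at every tile length.

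Outside the other windows, the nearest peaks were also at moderate or low percentiles. Before the Ebf1 window the nearest G1297 peak lay at 681 kb with a score of 105, at the 8.84th percentile, and after it at 219 kb with a score of 179, at the 35.3rd percentile. The nearest MEF peaks lay 24.7 kb before it, with a score of 209, and 30.4 kb after it, with a score of 491. Around Meis1 the nearest G1297 peaks lay 1613 kb before and 923 kb after the window, with scores of 103 and 321, and the nearest MEF peaks 68.6 kb before and 161 kb after it, with scores of 92.47 and 554. Around Runx2 the nearest MEF peaks lay 43.2 kb before and 94.3 kb after the window, with scores of 132 and 313. The peaks of G1297 at Meis1 thus had no near neighbours outside the window, and those at Ebf1 were closer to others on the side after it. Whether the distances around Meis1 are unusual was not determined. Gaps between G1297 peaks of at least 810 kb made up 63.0% of the total length of the gaps. In the GRCm38 annotation the neighbouring coding genes are Rnf145 and Clint1 for Ebf1, Clic5 and 4930564C03Rik for Runx2, Etaa1 and Spred2 for Meis1, and Tspan9 and Tulp3 for Tead4.

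The 5 shared sites were compared by the percentile of the peak in each list. At Ebf1 the percentile was higher in G1297 at 2 of 3 sites, by 40.0 and 62.2 points, and lower by 7.51 points at the third. At Meis1 it was lower in G1297 at both sites, by 43.6 and 26.6 points. Over all 5109 overlapping pairs of the lists, 36.3% had a higher percentile in G1297, and the median difference of G1297 minus MEF was -10.4 points, with quartiles of -34.5 and 9.33. Of all pairs, 2.39% exceeded the difference of 62.2 points at Ebf1, 7.36% exceeded that of 40.0 points, and 18.4% were below that of -43.6 points at Meis1. The first and last shared Ebf1 sites were thus toward the G1297 end of all shared sites by this difference, and the Meis1 sites on the MEF side, as are most pairs. With 3 and 2 sites these are descriptions of single positions.

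**Figure D3:**
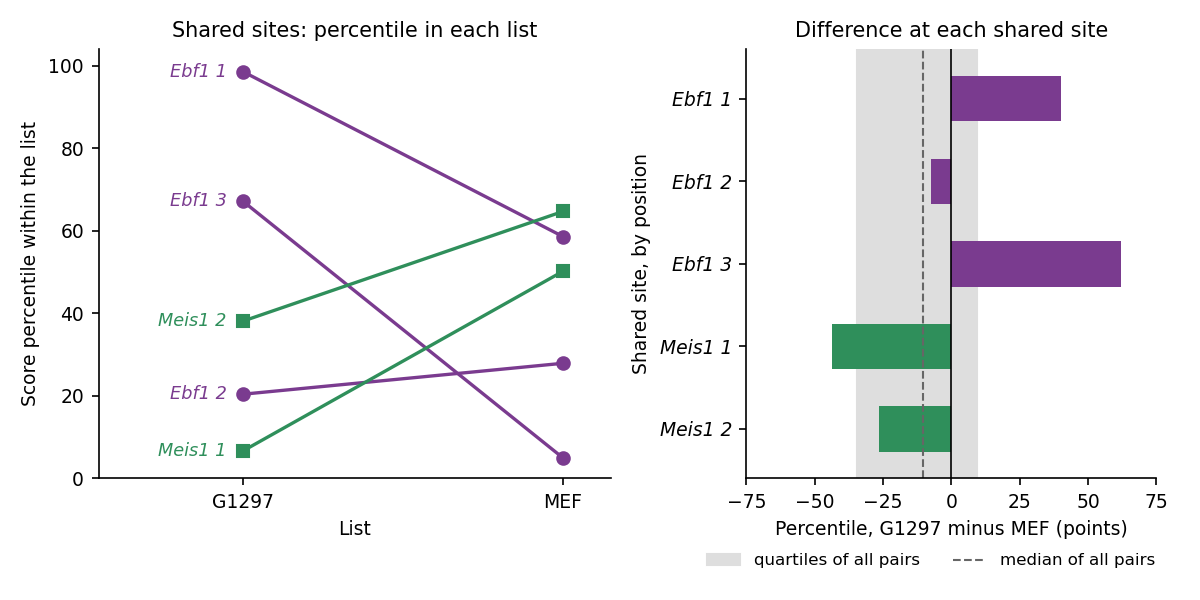
Left, score percentile within each list at the 5 shared sites, numbered by position in the Ebf1 and Meis1 windows, with lines joining the G1297 and MEF peak of a site. Right, the difference of the percentiles (G1297 minus MEF, points), with the median (dashed, -10.4) and the quartiles (shaded, -34.5 to 9.33) of all 5109 pairs; the first and the last Ebf1 site lie above the upper quartile.

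At the first and last shared Ebf1 sites the G1297 peaks measured 1463 and 1334 bp and the MEF peaks 1179 and 928 bp. At the Meis1 sites the G1297 peaks measured 633 and 684 bp and the MEF peaks 1437 and 1048 bp. At the remaining Ebf1 site they measured 671 and 771 bp. The wider peak was in the list of the higher percentile at 5 of 5 sites, as at 83.6% of all 5109 pairs, so the usual order of the lists held at these sites. The widths were compared after the positions had been seen. Width and score come from the same reads and are not independent measures.

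Since the MEF list is longer than the G1297 list, the windows were also counted after reducing the MEF list to the 8090 peaks with the highest scores, which left 29.8% of it, with scores of at least 629. Ebf1 then had 5 G1297 peaks and 0 MEF peaks, the reverse of the order in the whole lists. Runx2 had 0 and 4, Meis1 2 and 3, and Tead4 0 and 1 peaks in G1297 and MEFs, respectively. Of the 7 G1297 peaks 0 overlapped a remaining MEF peak, against 35.4% of the whole G1297 list under this limit. That 0 was fixed by the limit, since the MEF peaks at the shared sites scored between 101 and 508. The limit removes all but the highest-scoring 29.8% of the MEF peaks, at Ebf1 also the 3 above the list's median, while all G1297 peaks stay, among them 3 of the 5 at Ebf1, which lay between the 7.87th and the 20.4th percentile. The median percentile at Ebf1 was lower in G1297, at 20.4, than in MEFs, at 28.4. With the same threshold in both lists, Ebf1 had 2 G1297 and 4 MEF peaks at scores of at least 200, and 1 and 0 at scores of at least 500, although equal scores need not mean equal enrichment when the depth is unknown. The higher percentiles of G1297 at Ebf1 were thus those of 2 peaks, and the counts of 5 and 0 depend on limiting the MEF list alone.

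**Figure D4:**
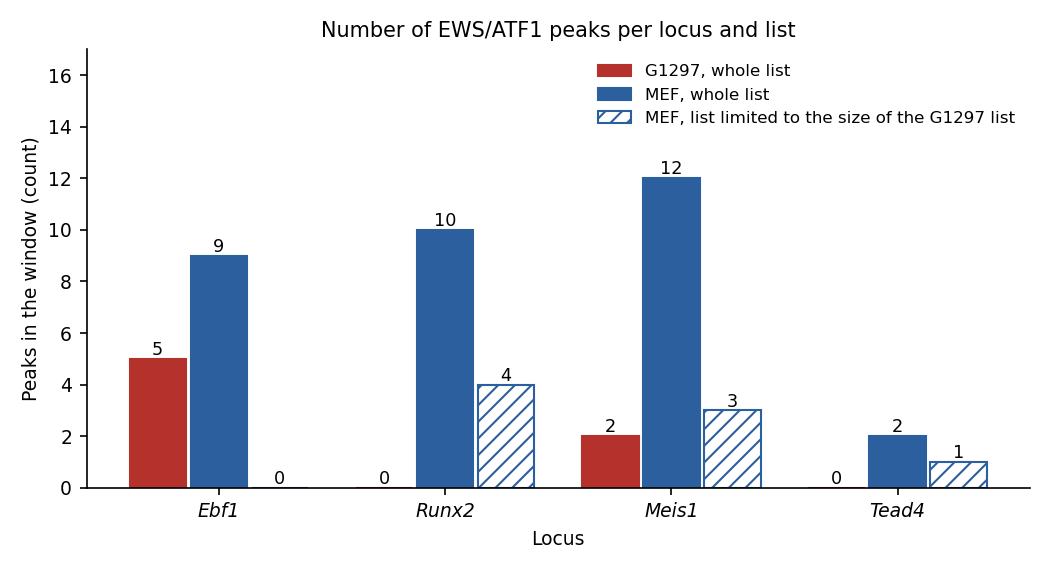
Number of peaks in each window in the G1297 list (red), the whole MEF list (blue) and the 8090 MEF peaks with the highest scores (hatched). At Ebf1 the count of MEF peaks went from 9 to 0 with the limit, and at Runx2 from 10 to 4.

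Over the 4 loci together, the median percentile was 20.4 for the 7 G1297 peaks and 35.3 for the 33 MEF peaks, both below the median of their lists, which is 50 by definition. Of the G1297 peaks 2 lay above that median, both at Ebf1, and of the MEF peaks 14 did, 3 at Ebf1, 4 at Runx2, 5 at Meis1 and 2 at Tead4. In the highest-scoring 10% of its list was 1 peak of each cell type, at Ebf1 in G1297 and at Runx2 in MEFs. The 28 MEF peaks without a G1297 counterpart lay a median of 69.0 kb from the nearest G1297 peak, against 109 kb over all unshared MEF peaks, with a range from 3.25 kb at Meis1 to 400 kb at Runx2.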

How the data were processed

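Peak lists of EWS/ATF1 ChIP-Seq with an HA antibody were used for G1297 and sarcoma MEFs, 12 h after Dox. Per the labels and the submitters' processing notes, the authors used FastQC, cutadapt, Bowtie2 2.2.0 with build mm9, and MACS 1.4.2. They deposited 1 list per cell type, with a score for each peak, and which of the 2 G1297 libraries entered the list is not given in the sources used here. The coordinates were taken as mm9, since 191 peaks on 8 of 20 chromosomes ended past the chromosome in GRCm38, and they were not converted. Positions are given 1-based. Depth is unknown.

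Peaks in the 4 windows, overlaps of at least 1 bp, mid-rank percentiles, clusters (at least 3 peaks, gaps of at most 10000 bp) and tiles of each window's length were computed with Python 3.11.15, pandas 2.3.3 and numpy 2.4.6, after a test on simulated lists. Chromosomes were taken to end at their last peak. In each locus and list, every peak was named where there were at most 6, and otherwise the 3 highest-scoring, the lowest-scoring and the shared peaks, with the nearest peaks outside. The members and lists were chosen with earlier results of these data known. Alternatives were other score thresholds, list sizes, window edges, overlap definitions and cluster gaps.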

Additional observations from a re-analysis of the deposited data

How the results depend on the processing

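Of 136 comparisons of an alternative with the count as reported, 46 moved by more than 1.5 times. Of the other 90, 47 were counts of 0 that stayed 0 and 3 were G1297 counts that a limit on the MEF list cannot change, which leaves 40 that stayed within 1.5 times. Thresholds on the score, which assume comparable depth, and the limit on the MEF list gave most of these 46. With scores of at least 200, G1297 had 2 peaks at Ebf1, 0 at Meis1 and 2 over all 4 loci, and MEFs had 4 at Ebf1, 5 at Runx2, 6 at Meis1 and 17 over all loci, with 1 shared peak at Ebf1, 0 at Meis1 and 1 over all loci in either list; of the whole lists, 62.5% of G1297 and 16.8% of MEF peaks were then shared. With scores of at least 500, G1297 had 1 peak at Ebf1, 0 at Meis1 and 1 over all loci, and MEFs had 0 at Ebf1, 4 at Runx2, 4 at Meis1, 1 at Tead4 and 9 over all loci, with 0 shared peaks at Ebf1, at Meis1 and over all loci, against 57.5% and 14.7% of the whole lists. With only as many MEF peaks used as the G1297 list holds, taken from the highest scores, MEFs had 0 peaks at Ebf1, 4 at Runx2, 3 at Meis1, 1 at Tead4 and 8 over all loci, and 0 peaks were shared at Ebf1, at Meis1 and over all loci in either list, against 35.4% and 34.5% of the whole lists.

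With windows extended by 50 kb on each side, Tead4 had 2 G1297 peaks in place of 0, beside 2 MEF peaks as before, and with windows shortened by 25 kb it had 1 MEF peak in place of 2. Meis1 had 1 shared peak in place of 2 in either list when 50% or more of the shorter peak had to be covered and when centres had to lie within 500 bp, where 62.5% and 60.2% of the whole G1297 list and 18.5% and 17.9% of the MEF list were shared. Gaps of at most 5 kb left 0 clusters at Runx2 in MEFs in place of 1, and gaps of at most 20 kb gave 2 at Meis1 in place of 1. Runx2 had 0 G1297 peaks under each score threshold, list size and window setting. Of these settings only the extended windows can raise a count of 0. The nearest G1297 peaks lay 189 kb before and 201 kb after the Runx2 window, beyond the extension of 50 kb. The unchanged 0 is therefore no further evidence. The shifts listed above follow from how the settings are built, since each removes or admits peaks, pairs or gaps.

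With 1 list for each cell type and no values of single libraries, a paired analysis could not be done, and results without a given replicate could not be computed. The unknown depth limits every comparison of counts or percentiles between the lists and the reads were not available to equalise it. No peak was assigned to a gene, since the windows are defined by position. The overlap, the cluster gap and the alternatives above were fixed before the data were examined, for windows that had been chosen with earlier results known.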
